A study of Mus musculus with 2 samples.

Results

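The genes examined here carry glucose through glycolysis to pyruvate, turn pyruvate into lactate, move lactate across the plasma membrane and admit pyruvate to the mitochondrion. There were 34 of them among 23786 genes with a named probe, taken from a fixed list of gene symbols. No measured value entered that rule, but the list was drawn up with earlier results of these data known. All 34 had at least 1 probe, and on both arrays all 34 passed the scanner's test of being well above background. A gene's value was that of its brightest probe. Its other probes served as a check, with 66 probes in all, of which 61 were above background on both arrays.

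Glycolysis splits glucose into pyruvate in the cytosol and yields ATP without oxygen. Pyruvate is then either reduced to lactate, which leaves or enters the cell through monocarboxylate transporters, or carried into the mitochondrion, where the pyruvate dehydrogenase complex converts it to acetyl-CoA. Dendritic cells raise glycolysis when they are activated, and lactate in their surroundings is known to dampen their inflammatory output.

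The arrays held RNA of bone marrow-derived dendritic cells, a culture of cells that present antigen to T cells. 1 array was labelled EGR1-deficient, called the mutant-labelled array below, and 1 was labelled WT. EGR1 belongs to the immediate early genes and binds GC-rich DNA through zinc fingers. Both samples were labelled male and of strain C57BL/6J, and neither the mutant allele, the age of the animals nor any pooling was given. In both groups femoral marrow had been grown with GM-CSF at 10 ng/ml and collected on day 6, and the labels name no further treatment, nor any lactate, which the study's title names. Each genotype was a single array, so no difference has a replicate check and no p-value was computed. The arrays shared a slide and a scan, per the file headers.

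Egr1 itself went against the labels. Its probe read 1212 on the mutant-labelled array and 379.7 on the WT array, which is a difference of 1.61 log2 units, and where that probe lies relative to the targeted stretch is not stated. Every direction below therefore rests on the labels as given. The male label was not borne out either, since Xist read 4559 and 3425 and only 1 of 4 Y-linked genes had its brightest probe above background on either array. Of the non-control spots, 59.8% were well above background on the mutant-labelled array and 55.2% on the WT array. All 18 dendritic cell markers examined were above background on both arrays, as were 17 of 18 macrophage markers and 12 of 12 neutrophil markers, so markers of several myeloid cell types were present.

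Most genes of the pathway read slightly lower on the mutant-labelled array, few of them by much, and 12 of the 34 took the other sign under at least 1 of 6 ways of scaling the arrays. Differences are in log2 units of signal after each array was scaled to its own 75th percentile, mutant-labelled minus WT. Of the 34 genes, 30 were below 0 and 4 above, against 57.4% of all 13725 genes above background on both arrays that were below 0 and 42.6% that were above. The median difference was −0.16 over the 34 genes and −0.05 over all genes. Single genes were picked out by a fold threshold of 0.322 log2 units, where the brighter array reads 25% above the dimmer. At that threshold 5 of the 34 genes were lower, against 15.5% of all genes, and 1 was higher, against 11.4% of all genes. With this scaling the 5 genes make up 14.7% of the 34, a share near that of all genes. The other 28 lay within the threshold. At 1.5-fold, 3 of the 34 genes were lower, against 4.17% of all genes, and 0 were higher, against 3.51%.

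The all-gene split itself depended on the scale and the background correction. At the fold threshold it was 2130 lower against 1562 higher of 13725 genes here, and 1040 against 469 of 13725 after normexp background correction. With the authors' deposited series table, which multiplies each array by its own constant, it was 923 against 2383 of 12772. The series table moved the all-gene median to 0.06. Relative to the median of all genes, the median of the 34 genes was −0.10 here and −0.10 with that table, although only 21 of the 34 were then below 0. Counts below 0 with that table carry the shift of the all-gene median, here and in later paragraphs. Below the all-gene median lay 27 of the 34, both here and with that table. A constant per array cancels in this relative measure, so that table could hardly change it. After cyclic loess the relative median was −0.04, and after quantile normalization it was −0.10. Under all 6 scalings 18 of the 34 genes were below 0 and 4 were above. In bulk RNA, fewer cells of a type and less RNA per cell cannot be told apart.

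**Figure D1:**
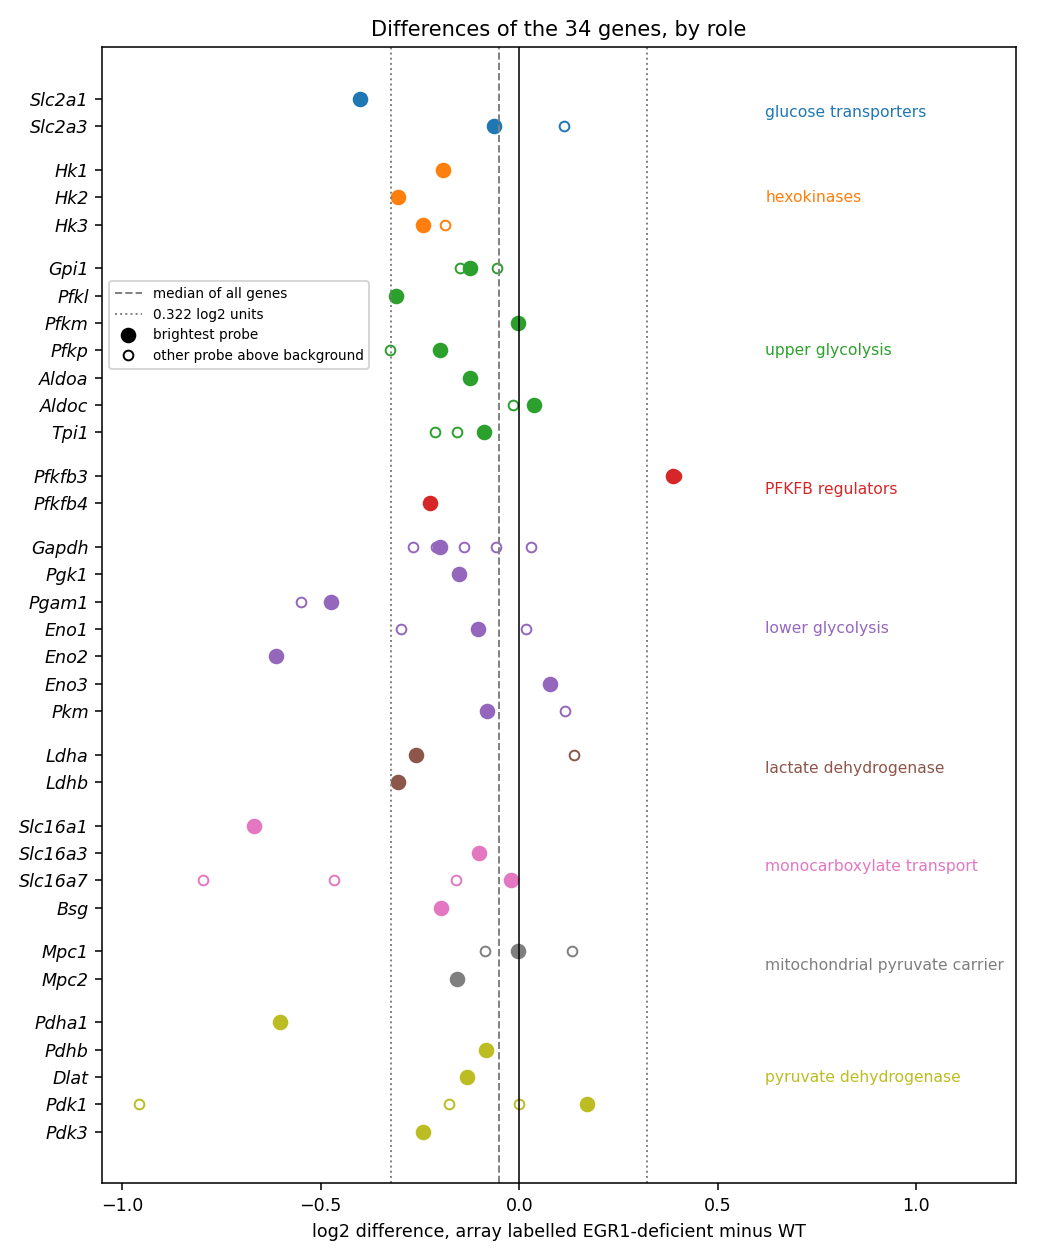
Log2 difference in scaled signal, mutant-labelled array minus WT, for the 34 genes grouped by role; filled points are the brightest probe, open points the other probes that passed on both arrays, the dashed line the all-gene median of −0.05 and the dotted lines the fold threshold of 0.322. Slc16a1, Eno2, Pdha1, Pgam1 and Slc2a1 lie left of the lower dotted line and Pfkfb3 alone lies right of the upper one; 12 of the 34 genes took the other sign under another scaling.

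The array has its own measures of technical error, and they bear on how these values can be read. The SD over spots of the same probe was 0.06 log2 units at the median, on either array. The SD of the difference over 2 probes of the same gene was 0.17 at the median and 0.31 as a root mean square, so the fold threshold of 0.322 lies close to the latter. Of the 15 genes with another probe above background on both arrays, 7 had all such probes on the same side of 0 and 8 had probes on both sides.

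With this scaling the lowest difference was that of Slc16a1, which encodes MCT1, a proton-coupled transporter that carries lactate and pyruvate in either direction. Slc16a1 read 76.3 on the mutant-labelled array and 115.8 on the WT array. It was dimmer on the mutant-labelled array, with a difference of −0.67 or 1.59-fold lower, and its value rests on 1 probe. After normexp it came to −0.47, and Pdha1, at −0.50, was then lower. Normexp was run with an offset of 50 added to each signal, which by construction shrinks the differences of dim probes. The stricter filter on dim probes left Slc16a1 out.

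Eno2, the enolase isoform best known from neurons, read 121.5 on the mutant-labelled array and 177.6 on the WT array. The difference was −0.61, 1.53-fold lower, again from 1 probe, and it came to −0.34 after normexp, just past the threshold. Pdha1, which encodes the catalytic alpha subunit of pyruvate dehydrogenase, read 159.6 against 231.3. It was 1.52-fold lower, a difference of −0.60, and had no other probe.

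Pgam1, the phosphoglycerate mutase of lower glycolysis, was the best-measured of the lower genes. Its brightest probe was printed 10 times on each array. On the mutant-labelled array the lowest spot read 6562, the median 6985 and the highest 7569, whereas on the WT array the lowest read 8831, the median 9244 and the highest 10399. The spots of the arrays did not overlap. The scaled log2 signal was 5.20 ± 0.06 (SD, n = 10 spots) against 5.68 ± 0.07 (SD, n = 10 spots), a difference of −0.47 with a standard error of 0.03 over spots, which covers the printing and reading of an array but not the cultures. A separate Pgam1 probe read 3923 against 5483, a difference of −0.55.

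Slc2a1, which encodes the basal glucose transporter GLUT1, read 1137 on the mutant-labelled array and 1433 on the WT array, which is a difference of −0.40 or 1.32-fold lower. This value rests on 1 probe, and it came to −0.30 after quantile normalization, −0.31 after loess and −0.29 with the authors' series table, each within the fold threshold. The other genes lower here were past the threshold in every setting that measured them, but for those with 1 probe only the scalings could change the value.

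Pfkfb3 was the exception in the other direction. It encodes the 6-phosphofructo-2-kinase that makes fructose 2,6-bisphosphate, the strongest activator of phosphofructokinase. The brightest probe read 5341 on the mutant-labelled array and 3898 on the WT array, 1.31-fold higher, a difference of 0.39. A second probe read 447.1 against 324.7 and gave 0.39 as well. Its difference stood at percentile 91.7 of all genes, and in the brightest of 4 equal bins of genes by signal, to which Pfkfb3 belongs, 2.16% were higher by the threshold or more. In that bin, which also holds Pgam1 and Slc2a1, 10.38% of all genes were lower by the threshold or more. In the second-dimmest bin, which holds Slc16a1, Eno2 and Pdha1, that share was 16.55%.

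**Figure D2:**
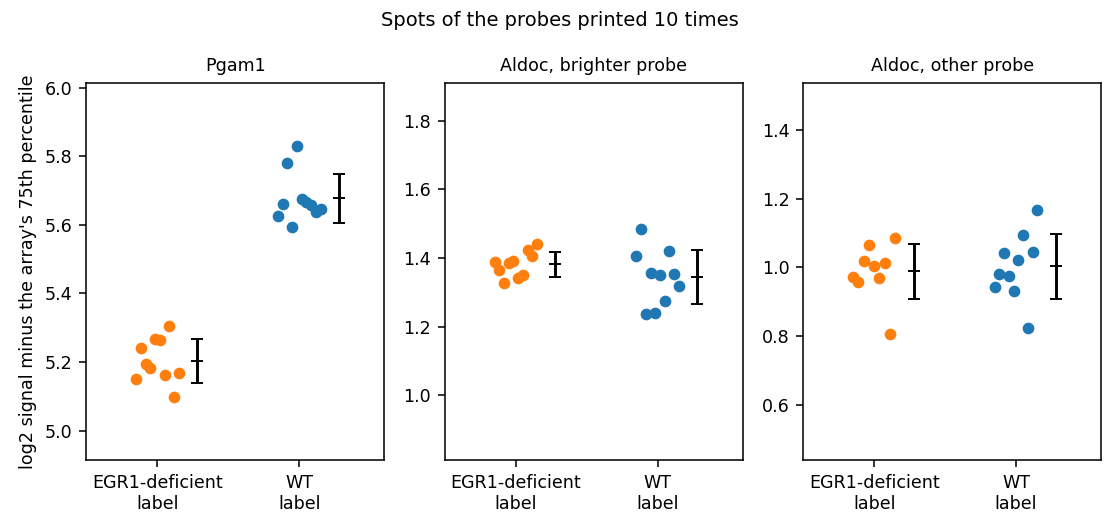
Log2 signal minus the array's 75th percentile for each spot of the probes of Pgam1 and Aldoc that were printed 10 times, with mean and SD over spots beside the points; each panel spans the same height. The Pgam1 spots of the arrays do not overlap, at 5.20 ± 0.06 against 5.68 ± 0.07, whereas the Aldoc spots overlap for both probes.

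The comparison concerns a DNA-binding factor, so the sequence just before the start is shown for each gene past the threshold whose window held a searched motif. Ldha is shown for its 5 matches to the hypoxia motif and Pfkp for the only match to the EGR motif. Capitals mark matches on either strand to the hypoxia motif ACGTG, to the E-box CACGTG, bound by MYC and related factors, which contains the hypoxia motif, and to the EGR motif GCGTGGGCG or GCGGGGGCG. Each is the 250 bases before a RefSeq gene start, build GRCm38.p6, written 5′ to 3′ on the strand of the gene.
Slc16a1, chr3:104638414-104638663, plus strand: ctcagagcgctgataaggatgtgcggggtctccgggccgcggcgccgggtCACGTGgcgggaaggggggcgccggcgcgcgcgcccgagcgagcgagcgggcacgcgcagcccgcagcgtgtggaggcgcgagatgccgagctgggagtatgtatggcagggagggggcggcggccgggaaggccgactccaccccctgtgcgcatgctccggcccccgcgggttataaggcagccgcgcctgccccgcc
Pgam1, chr19:41911621-41911870, plus strand: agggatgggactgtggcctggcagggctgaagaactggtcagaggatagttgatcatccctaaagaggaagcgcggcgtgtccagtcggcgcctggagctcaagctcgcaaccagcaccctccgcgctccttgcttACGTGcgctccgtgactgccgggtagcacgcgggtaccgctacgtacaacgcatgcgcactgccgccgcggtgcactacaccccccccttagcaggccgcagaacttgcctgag
Slc2a1, chr4:119108495-119108744, plus strand: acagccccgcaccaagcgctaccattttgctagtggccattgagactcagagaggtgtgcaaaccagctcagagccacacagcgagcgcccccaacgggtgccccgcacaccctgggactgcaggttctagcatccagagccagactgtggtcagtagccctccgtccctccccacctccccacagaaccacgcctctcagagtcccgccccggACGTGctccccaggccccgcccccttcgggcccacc
Pfkfb3, chr2:11553930-11554179, minus strand: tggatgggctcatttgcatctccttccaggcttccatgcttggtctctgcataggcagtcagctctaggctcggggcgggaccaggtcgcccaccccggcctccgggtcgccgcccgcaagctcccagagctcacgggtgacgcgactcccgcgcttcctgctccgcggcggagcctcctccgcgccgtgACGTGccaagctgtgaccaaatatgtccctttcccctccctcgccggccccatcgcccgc
Pfkfb3, another start, chr2:11502091-11502340, minus strand: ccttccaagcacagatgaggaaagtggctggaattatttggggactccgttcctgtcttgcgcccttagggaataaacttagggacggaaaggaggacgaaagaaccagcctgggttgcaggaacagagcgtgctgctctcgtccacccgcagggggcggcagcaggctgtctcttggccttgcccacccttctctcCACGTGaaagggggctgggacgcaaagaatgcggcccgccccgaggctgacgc
Ldha, chr7:46845554-46845803, plus strand: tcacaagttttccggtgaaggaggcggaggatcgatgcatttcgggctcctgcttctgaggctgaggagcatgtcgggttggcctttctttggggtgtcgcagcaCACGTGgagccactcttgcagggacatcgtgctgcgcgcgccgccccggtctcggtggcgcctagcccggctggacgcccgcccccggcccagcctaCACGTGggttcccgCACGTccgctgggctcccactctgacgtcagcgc
Pfkp, chr13:6648772-6649021, minus strand: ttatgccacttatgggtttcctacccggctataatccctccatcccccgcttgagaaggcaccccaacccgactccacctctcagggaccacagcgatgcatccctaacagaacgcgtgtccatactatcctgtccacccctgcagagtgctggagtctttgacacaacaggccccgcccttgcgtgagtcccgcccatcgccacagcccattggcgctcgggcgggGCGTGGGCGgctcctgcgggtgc

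RefSeq windows were found for 31 of the 34 genes, 45 windows in all. The EGR motif was in the window of Pfkp alone, 3.23% of these 31 genes against 3.47% of all 27025 genes with a window. The hypoxia motif was in 14 of the 31, which is 45.2%, against 18.5% of all genes. The E-box was in 4 of the 31, which is 12.9%, against 6.86%. A gene counted if any of its windows matched, and all genes here include those not above background. The shares were not matched for GC content, which ran from 36.4% to 76.4% over the windows of the 31 genes. It was not compared with that of all genes. Per window the shares were 37.8% against 16.6% for the hypoxia motif. They were 8.89% against 6.02% for the E-box and 2.22% against 3.06% for the EGR motif. The windows of Eno2 and Pdha1 held none of the 3 motifs. The 14 genes with the hypoxia motif had a median difference of −0.20 and the 17 without it −0.16. Pfkfb3, higher on the mutant-labelled array, and Slc16a1, lower there, both held an E-box, which counts as 2 matches to the hypoxia motif. A match to these letters is a description of the window and does not show binding.

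At the entry of glucose 1 of the transporters was past the threshold and the other was near 0. Besides Slc2a1, the high-affinity transporter GLUT3, encoded by Slc2a3, read 331.1 on the mutant-labelled array and 330.2 on the WT array, which after scaling is a difference of −0.06, and its other probe gave 0.11. The hexokinases, which trap glucose as glucose 6-phosphate, were all slightly below 0, under each of the 6 scalings. Hk2, the inducible hexokinase, read 530.8 against 626.0, a difference of −0.30, just inside the fold threshold. After normexp Hk2 came to −0.33, just past it. Hk3, prominent in myeloid cells, gave −0.24 with a second probe at −0.19, and Hk1 gave −0.19.

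In the upper part of glycolysis, 6 of 7 genes were below 0, with a median of −0.12, but 3 of 7 after cyclic loess and 4 of 7 with the series table; 0 of the 7 passed the threshold. Pfkl, the liver-type subunit of phosphofructokinase, read 2409.5 on the mutant-labelled array and 2855 on the WT array, which is a difference of −0.31. The platelet-type subunit Pfkp gave −0.20, and its second probe, at −0.33, was past the threshold. The muscle-type subunit Pfkm gave −0.0031. The aldolase Aldoa, among the brightest signals of the set, read 48706 against 50711, a difference of −0.12. Aldoc, another aldolase isoform, was measured by a pair of probes printed 10 times each, and its spots overlapped between the arrays. They gave 0.04 with a standard error of 0.03 over spots, and −0.01 with a standard error of 0.04. The isomerases Gpi1 and Tpi1 gave −0.12 and −0.09, and all 3 probes of each were below 0, yet both genes were above 0 after cyclic loess. Pfkfb4, the other 6-phosphofructo-2-kinase gene of the set, read 583.2 against 651.3, a difference of −0.23, opposite in sign to Pfkfb3.

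In the lower part of glycolysis, 6 of 7 genes were below 0 with a median of −0.15, and 4 of 7 after cyclic loess, after quantile normalization and with the series table. Gapdh, often used as a reference gene, showed how far probes of 1 gene can spread. Its brightest probe read 25064 on the mutant-labelled array and 27491 on the WT array, which is a difference of −0.20, and its 5 other probes ran from −0.27 to 0.03. Pgk1, phosphoglycerate kinase, gave −0.15. The ubiquitous enolase Eno1 gave −0.10, with other probes at −0.30 and 0.02, and the muscle enolase Eno3 gave 0.08. Pkm, pyruvate kinase, read 18702 against 18885, a difference of −0.08, and its other probe gave 0.12. Gapdh, Eno1, Ldha and several other glycolytic genes have near-identical processed pseudogenes, so their probes could also bind related transcripts, which was not tested.

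At the branch to lactate both dehydrogenase subunits were below 0 in their brightest probes. Ldha, the subunit that favours the formation of lactate, read 8795 on the mutant-labelled array and 10060 on the WT array, which is a difference of −0.26. Its second probe read 415.3 against 360.2 and gave 0.14, so the direction for Ldha depends on the probe. Ldhb, the subunit that favours the oxidation of lactate, read 263.6 against 310.9, a difference of −0.30, and its other probe was above background on the WT array only.

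Of the other monocarboxylate transport genes, Slc16a3, which encodes the lactate exporter MCT4, read 1109 on the mutant-labelled array and 1137 on the WT array, which is a difference of −0.10. Bsg, which encodes basigin, the chaperone that brings MCT1 and MCT4 to the cell surface, gave −0.20. Slc16a7, which encodes the high-affinity transporter MCT2, gave −0.02 in its brightest probe, which read 301.9 against 292.5. Its 3 other probes above background were all lower, the furthest at −0.80 from readings of 37.6 and 62.3. The 4 genes were thus all below 0 in the brightest probe, with a range from −0.67 to −0.02, but only 2 of them with the series table.

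Genes of pyruvate entry lay within the fold threshold apart from Pdha1. Mpc1 and Mpc2, the subunits of the mitochondrial pyruvate carrier, gave −0.0032 and −0.16. Mpc1 was above 0 with the series table, and its other probes gave −0.09 and 0.13. Pdhb, the beta subunit that pairs with Pdha1 in the same enzyme, read 483.0 on the mutant-labelled array and 489.0 on the WT array, which is a difference of −0.08. Dlat, the transacetylase core of the complex, gave −0.13. Its other probe, at 24.2 against 15.3, went the other way and was above background on the mutant-labelled array only. The kinases that switch the complex off differed in sign. Pdk1 read 233.6 against 198.2 and gave 0.17, but its 3 other probes ran from −0.96 to 0.0005. Pdk3 gave −0.24 from 1 probe.

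**Figure D3:**
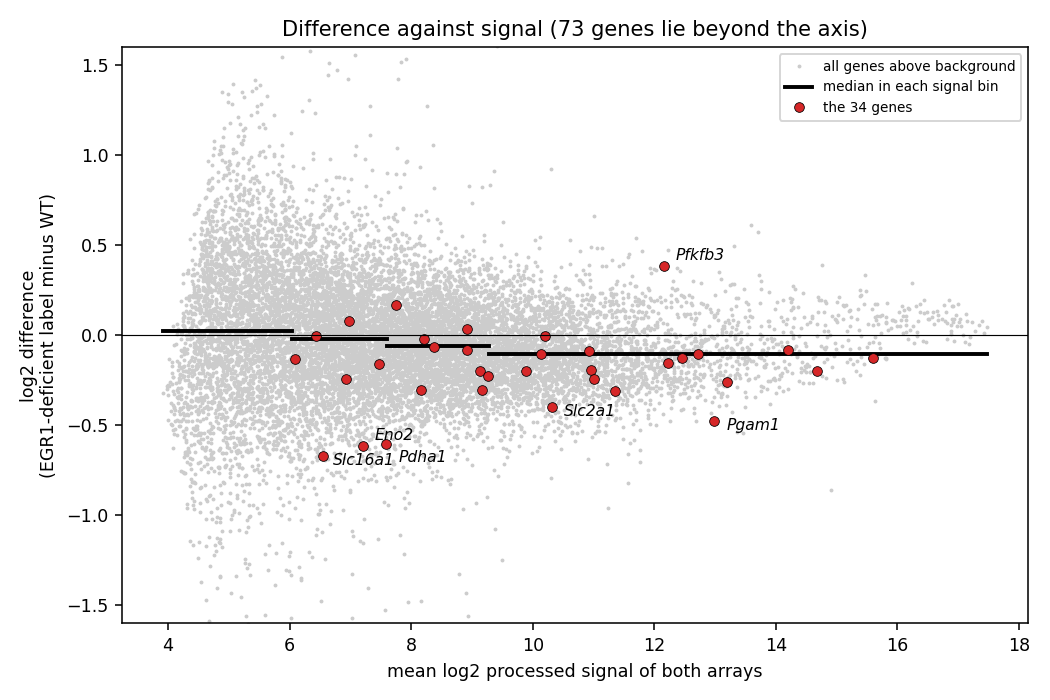
Log2 difference against mean log2 signal of both arrays for 13725 genes (grey; 73 lie beyond the axis) and for the 34 genes (red), with the median of all genes in each of 4 equal signal bins as a black bar. The bars run from 0.02 in the dimmest bin to −0.10 in the brightest, where 17 of the 34 genes lie.

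The brightness of a gene moved with its difference on these arrays. Split into 4 equal bins by signal, all genes had a median of 0.02 in the dimmest, then −0.02, −0.06 and −0.10 in the brightest. In the brightest bin 69.7% of all genes were below 0. That bin held 17 of the 34 genes, with a median of −0.15, and 13 of them lay below the bin's own median. The third bin held 9 with a median of −0.08 and the second held 8 with a median of −0.20, and in each of these 6 lay below the bin's median. After cyclic loess, which takes out such a trend, the median was −0.07 for the 34 genes and −0.03 for all genes, and 19 of the 34 lay below the all-gene median, compared with 27 here. After quantile normalization, which gives both arrays the same distribution of signals, the medians were −0.12 for the 34 genes and −0.03 for all genes. With it 22 of the 34 lay below the all-gene median. The part of this trend in the low readings of the pathway was not otherwise tested.

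**Figure D4:**
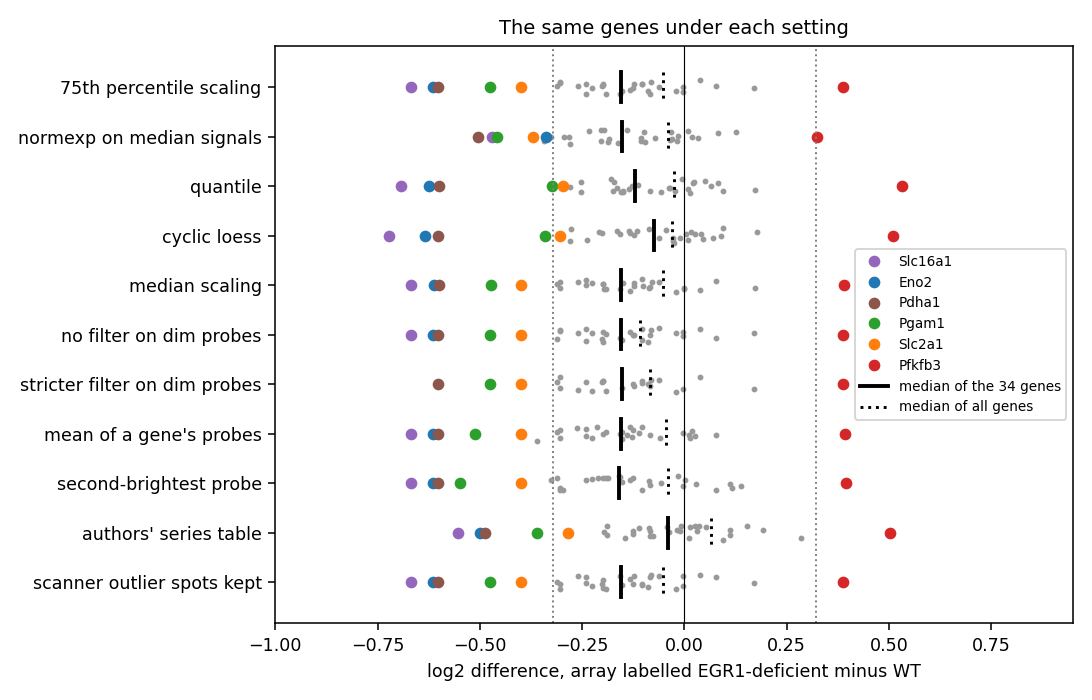
Log2 differences of the 34 genes under the 75th percentile scaling and each of 10 other settings (grey, with 6 genes in colour). Solid bars are the median of the 34 genes and dotted bars that of all genes. The stricter filter on dim probes leaves 27 of the 34. Pfkfb3 stays right of the fold threshold in every setting, between 0.32 and 0.53, and Pgam1 left of the lower one, nearest at −0.32 after quantile normalization, whereas the median of the 34 genes runs from −0.16 to −0.04.

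The rest of the pathway gave a mixed picture. A further 53 genes of glycolysis, glucose and lactate transport, pyruvate entry and gluconeogenesis had a probe, and 28 were above background on both arrays. Of these, 16 were below 0 and 12 above, against 57.4% and 42.6% of all genes. By the threshold or more, 7 were lower and 4 higher, against 15.5% and 11.4% of all genes. The median was −0.05, equal after rounding to that of all genes, and 0.02 with the series table. On the mutant-labelled array alone 4 were above background, and 21 were not above background on either array, among them Hcar1, which encodes the lactate receptor GPR81, and Pdk4.

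Among the 28 above background on both arrays, the largest differences in either direction were those of Pdhx, Slc2a9, Tigar and Slc16a8, each from 1 probe. Pdhx, which anchors a subunit of the pyruvate dehydrogenase complex, read 66.5 on the mutant-labelled array and 31.4 on the WT array, which is a difference of 1.02. Slc2a9, a urate and hexose transporter, read 68.6 against 37.8, a difference of 0.79. Tigar, a phosphatase that lowers fructose 2,6-bisphosphate and so acts against Pfkfb3, read 175.1 against 258.9 and gave −0.63. Slc16a8, which encodes the transporter MCT3, gave −0.62. Slc2a6, a glucose transporter family member found in myeloid cells, read 3376 against 4541, a difference of −0.49 with a second probe at −0.24.

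The kinase gene Pdk2 gave −0.47, Lias, the lipoic acid synthase, −0.38 with another probe at 0.25, Minpp1 −0.35 with another at −0.22, and Bpgm, which makes 2,3-bisphosphoglycerate, −0.33. The muscle mutase Pgam2 gave 0.42 and the glucose 6-phosphate carrier Slc37a4 gave 0.38. Ldhc, a dehydrogenase of the male germ line, was named after its values were seen. It read 207.5 in the brightest probe on the mutant-labelled array and was not well above background on the WT array. That makes it at least 12-fold higher, the reading set against the lowest signal well above background there, yet its other probe gave −0.77.

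Both neighbouring pathways also had most genes below 0, under each of the 6 scalings. The tricarboxylic acid (TCA) cycle, which burns the acetyl-CoA, had 20 of 22 genes below 0 (17 of 22 with the series table), 5 of them past the threshold, and a median of −0.17. Among them Idh3g, a subunit of isocitrate dehydrogenase, read 1762 on the mutant-labelled array and 2455 on the WT array, which is a difference of −0.54 with a second probe at −0.27. Sdhc, a membrane anchor of succinate dehydrogenase, gave −0.51 and Suclg1, of succinyl-CoA synthetase, −0.41, while Aco1 gave −0.35 with another probe at 0.28. The pentose phosphate pathway, which branches off at glucose 6-phosphate, had 7 of 8 genes below 0 and a median of −0.22, with Rpia at −0.42 and Rpe at −2.06, the latter against −0.34 and −0.19 in its other probes.

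Hypoxia-inducible factor and MYC are known activators of glycolytic genes. Of 12 hypoxia targets outside glycolysis above background on both arrays, 7 were below 0 and the median was −0.03, but 4 were below 0 and the median was 0.08 with the series table. Within that list Ankrd37 and P4ha1 each gave −0.66, P4ha1 with another probe at −0.28. Among 14 regulators 9 were below 0 with a median of −0.09, and 7 of the 13 measured with the series table. Hif1a, the oxygen-regulated subunit, read 1111 on the mutant-labelled array and 1361 on the WT array, which is a difference of −0.36 from 1 probe. Myc went the other way, at 317.7 against 242.5, a difference of 0.32 with another probe at 0.03; it lies outside the rule for named genes and was added after its values were seen. Hif1an, an inhibitor of that subunit, gave 0.33 with another probe at 0.23. Mlxip, a glucose-sensing factor, gave −0.78 but −0.07 in another probe, and its target Arrdc4 gave −0.45 and −0.40.

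**Figure D5:**
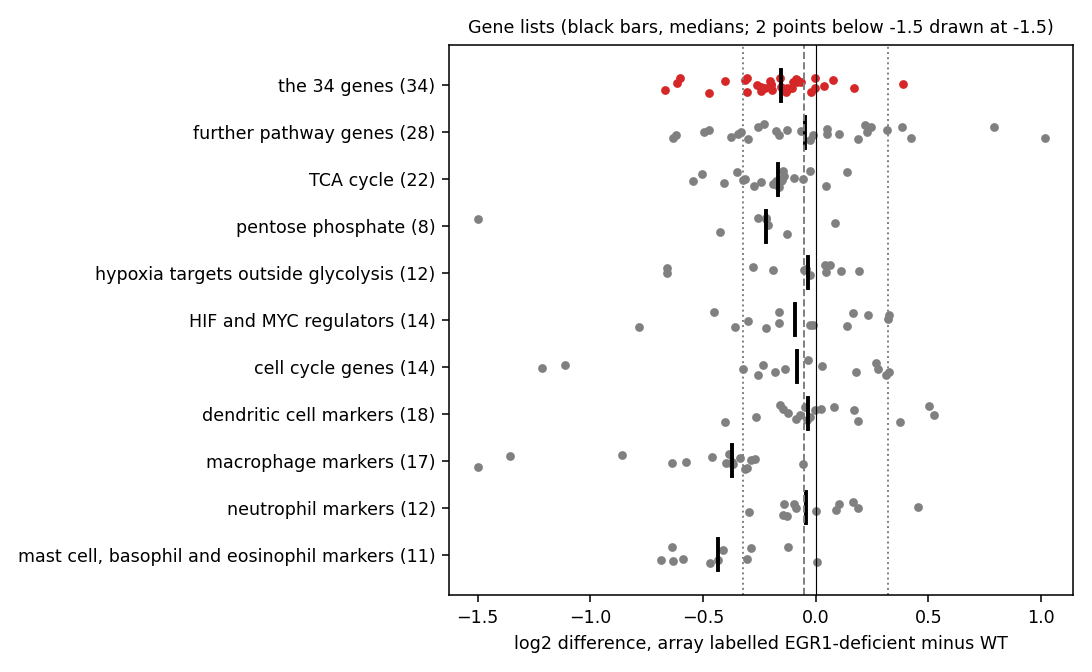
Log2 differences of the genes above background on both arrays in each list, with the number of genes in brackets, medians as black bars, the all-gene median of −0.05 as a dashed line and the fold threshold as dotted lines; 2 points beyond the axis, Retnla and Rpe, are drawn at its edge. The 34 genes (−0.16) and the TCA cycle (−0.17) lie close together, and the macrophage markers (−0.37) lie further left.

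Among the marker lists of other cells, those of macrophages and of mast cells, basophils and eosinophils also read lower on the mutant-labelled array. Of all genes, 57.4% were below 0, 15.5% were lower by the threshold or more and 11.4% were higher. All 17 macrophage markers above background on both arrays were below 0, 12 of them past the threshold, with a median of −0.37 (14 of the 15 measured were below 0 with the series table), and Cd163 was not above background on either array. The largest of these differences were Retnla at −3.34, Arg1 at −1.36, Chil3 at −0.86 and C1qc at −0.64, each from 1 probe. The summed signal of the list was 109593 on the mutant-labelled array and 149391 on the WT array. Of 11 mast cell, basophil and eosinophil markers, 10 were below 0 with a median of −0.43, and the summed signal of the list was 7263 against 9398. Dendritic cell markers had a median of −0.03, with 11 of 18 below 0 and summed signals of 65895 and 65699, and neutrophil markers had a median of −0.04, with 6 of 12 below 0; with the series table these medians were 0.08 and 0.07. The cell cycle genes had 8 of 14 below 0, a median of −0.08, and 0.03 with that table. Other lists went the other way or were split. Of 7 lymphoid markers above background on both arrays 4 were above 0, with a median of 0.18. All 10 listed lymphoid markers had summed signals of 887 against 615. All 3 such stromal markers were above 0 and past the threshold, with a median of 0.99. A further 3 were above background on the mutant-labelled array alone, and all 8 listed had summed signals of 260 against 131. Of 3 erythroid markers above background on both arrays 2 were below 0, and all 6 listed had summed signals of 226 against 220. The part of these cell types in the pathway's readings was not tested.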

How the data were processed

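The authors deposited spot intensities as Agilent Feature Extraction scanner output, made with version 12.1.0.3 per the file headers and 11.5.1.1 per the submitters' processing notes. The processed intensity is background-subtracted, per the file headers. A deposited series table of intensities holds that signal times 6.18 (labelled EGR1-deficient) and 5.97 (WT), with column medians of 1205 and 1114. Why these constants were used is unknown.

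Control spots and scanner outliers (77 and 79) were left out. Log2 signal minus the array's 75th percentile (191.6 and 183.0) was used, and repeated spots were averaged. Probes were named by transcript accession through RefSeq's gene table for GRCm38.p6, used for names only, since the arrays name another build: 34566 probes were named and 22039 were not. The counting steps were run on simulated data with planted changes well past the fold threshold. That checks the code and does not bear on calls near the threshold. Alternatives used limma 3.58.1. Array number limits the precision, at 1 per group. By rule, genes outside the 34 could be named where they were among the 4 largest differences past the fold threshold in their list; Egr1 and Xist check the labels, and Hcar1, Pdk4, Cd163, Ldhc and Myc were added outside the rule after their values were seen. The genes and lists were chosen with earlier results of these data known.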

Additional observations from a re-analysis of the deposited data

How the results depend on the processing

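The median of the 34 genes stayed below 0 in all 10 alternatives, with values from −0.16 to −0.04. Under the stricter filter it was the median of the 27 genes left. In every setting run 16 genes stayed below 0 and 2 above, while 16 took both signs. Eno2, Pdha1, Pgam1 and Slc16a1 stayed past the fold threshold below 0 and Pfkfb3 above 0 wherever they were measured, while Slc2a1 did not. A filter on dim probes could drop a gene but not change its value. For Eno2, Pdha1, Slc16a1 and Slc2a1, with 1 probe each, probe choice and outlier spots could not change it either. Only the scalings could. Cyclic loess gave a median of −0.0745 for the 34 genes, and −0.0442 relative to all genes. The authors' series table gave −0.0401 for the 34 genes and 0.0189 for the further pathway genes. Of its 12772 genes, 923 were lower and 2383 higher at the fold threshold. Normexp (offset 50), run on median spot signals because the planned mean signal is not a column of the files used here and so added after seeing the data, gave 1040 lower and 469 higher. With no filter on dim probes 6632 of 23786 genes were lower and 4293 higher, and the 34 genes lay at −0.0473 relative to all genes. The stricter filter left 27 of the 34 genes and 6986 genes in all. Of the 27, 3 were lower and 1 was higher, and of the 6986, 840 were lower and 295 higher. The 13 further pathway genes left had a median of −0.16. Where no alternative's construction shows it, the cause was not tested. No paired analysis was possible because each group is 1 array, and no replicate could be left out.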
